A study of Mus musculus with 13 samples.

Results

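The mitochondrial chromosome of the mouse carries 37 annotated genes, and all 37 were found by their identifiers among the 56923 gene IDs of the deposited count files. They comprise 13 protein genes, 2 ribosomal RNA (rRNA) genes and 22 transfer RNA (tRNA) genes, with 28 genes on the plus and 9 on the minus strand. Over 13 libraries they held 9317712 of 60586470 gene counts, or 15.4%. The libraries were made from CD45+ cells sorted from subcutaneous tumours of EL4, a T-lymphoma line of the mouse whose cells carry CD45 themselves. In the vector group (7 libraries) the injected EL4 cells carried a vector, and in the PSGL1_KO group (6 libraries) they lacked PSGL1, an adhesion molecule of leukocytes. Both groups were otherwise treated alike: mice aged 6 to 8 weeks received 500000 EL4 cells in the flank, and tumours were taken about 20 days later. Host cells were not modified as far as the labels say. The mouse strain, the number of knockout clones and whether each library came from its own mouse are not stated, so p-values measure only the spread between these libraries. The sort does not separate EL4 cells from host leukocytes, and in bulk RNA fewer cells of a type and less RNA per cell cannot be told apart.

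Mitochondrial DNA encodes subunits of the respiratory chain and the RNAs needed to translate them; the rest of the organelle's proteins come from the nucleus. Both strands are copied into long precursor RNAs, and the tRNAs that lie between the other genes mark the points at which the precursor is cut into single RNAs. The minus strand carries only mt-Nd6 among the protein genes, together with 8 tRNA genes. A tRNA gene can therefore collect reads from the mature tRNA, from uncut precursor or from RNA of the opposite strand. The library kit is named as NEBNext Ultra, and the strand option used in counting is not given. Which of these RNAs the counts of a tRNA gene stand for was not tested.

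The 5 genes that passed the test below are all tRNA genes. Their sequences are shown because reads over such short genes are the measurement on which the comparison turns. They are given 5′ to 3′ on the gene's own strand as in GENCODE M21 (GRCm38, the assembly also called mm10), with the anticodon in capitals as located between paired stem bases.
mt-Tq (glutamine, minus strand, chrM:3772-3842): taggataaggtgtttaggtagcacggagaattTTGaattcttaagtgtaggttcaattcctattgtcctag
mt-Tw (tryptophan, plus strand, chrM:4950-5016): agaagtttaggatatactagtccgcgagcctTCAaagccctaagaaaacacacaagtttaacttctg
mt-Ta (alanine, minus strand, chrM:5018-5086): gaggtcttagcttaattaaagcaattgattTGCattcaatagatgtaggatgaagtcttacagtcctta
mt-Ty (tyrosine, minus strand, chrM:5260-5326): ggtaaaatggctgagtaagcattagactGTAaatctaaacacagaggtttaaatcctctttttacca
mt-Te (glutamate, minus strand, chrM:14071-14139): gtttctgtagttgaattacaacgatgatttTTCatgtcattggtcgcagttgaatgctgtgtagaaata
They are 67 to 71 bases long. mt-Tq lies between mt-Nd1 and mt-Nd2, mt-Tw, mt-Ta and mt-Ty between mt-Nd2 and mt-Co1, and mt-Te between mt-Nd6 and mt-Cytb.

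Gene IDs held 3710817 to 5712566 counts per library (median 4584464), which was 10.5% to 12.5% of all reads in the files; 67.3% to 75.4% fell on no feature. Counts of IDs outside the mitochondrial chromosome could not be read by gene name. Whether the names or the counting (strand option not given) lie behind this was not tested, nor whether mitochondrial counts share it. Of 4 genes used by nearly every cell, Actb (cytoskeleton) had at most 22 counts in a library, Tubb5 (tubulin) at most 8 and Eef2 (translation) at most 3, while Gapdh, a glycolytic enzyme, had 508 to 1102. For the same reason the sort could not be checked by markers. Of 22 marker genes 8 had at most 3 counts in every library, and 4 were at 0 in all 13. Markers of one cell type differed: of macrophage markers Adgre1 and C1qa were at 0 and Cd68 at 15 to 111 counts. Of T-cell markers Cd3e had 1098 to 2326, Cd4 35 to 210 and Lck at most 5. The highest mean level of the 22 was that of a fibroblast marker, Col1a2, with 2319 to 23554 counts. Other fibroblast markers were low, with Col1a1 at most 7 and Dcn at most 1. Of erythroid markers Hba-a1 had 87 to 275 and Hbb-bs 0. The ID of Ptprc, which encodes CD45, had 149 to 571 counts. On the mitochondrial chromosome 35 of 37 IDs carried the same version as in GENCODE M21, the exceptions being mt-Atp8 and mt-Nd4l.

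Vector replicate 5 stood apart from the other libraries. Mitochondrial genes took 34.5% of its gene counts. In the scaled levels (CPM) defined below, it was the highest vector library for 21 of the 22 members tested. For these it was at 2.81 to 9.45 times the median of the other vector libraries. For mt-Nd4l, the exception, it was at 1.77 times that median. Reads with more than 1 alignment made up 13.6% of its total, against 8.20% to 9.67% in the other vector and 7.71% to 9.45% in the PSGL1_KO libraries. Results are therefore given with and without it. The deposited files also carry numbers that begin with 3 (2 vector and 2 PSGL1_KO libraries) or with 7 (5 and 4); what the numbers stand for is not given, and they are used only to split the libraries.

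The mitochondrial share of gene counts overlapped between the groups. In vector replicates 1 to 7 it was 15.1%, 12.6%, 11.6%, 11.7%, 34.5%, 16.2% and 11.6%. In PSGL1_KO replicates 1 to 6 it was 13.2%, 13.5%, 17.8%, 13.7%, 10.0% and 13.9%. Apart from vector replicate 5, the libraries of both groups lay between 10.0% and 17.8%. The means were 16.2% ± 8.26 (SD, n = 7) and 13.7% ± 2.48 (SD, n = 6), and without vector replicate 5 the vector mean was 13.1% ± 2.01 (SD, n = 6), below that of PSGL1_KO. Among files numbered from 7 the means were 17.1% and 13.9%, and among those numbered from 3 they were 13.8% and 13.4%. Vector replicate 5 is among the files numbered from 7 and raises that vector mean. The other vector libraries of these files, replicates 3, 4, 6 and 7, had 11.6%, 11.7%, 16.2% and 11.6%. The PSGL1_KO libraries of these files, replicates 3 to 6, had 17.8%, 13.7%, 10.0% and 13.9%. The widest 95% Wilson interval of a single library's share was 0.0790 percentage points, so counting error is small beside the spread between libraries; it does not cover duplicate reads.

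**Figure D1:**
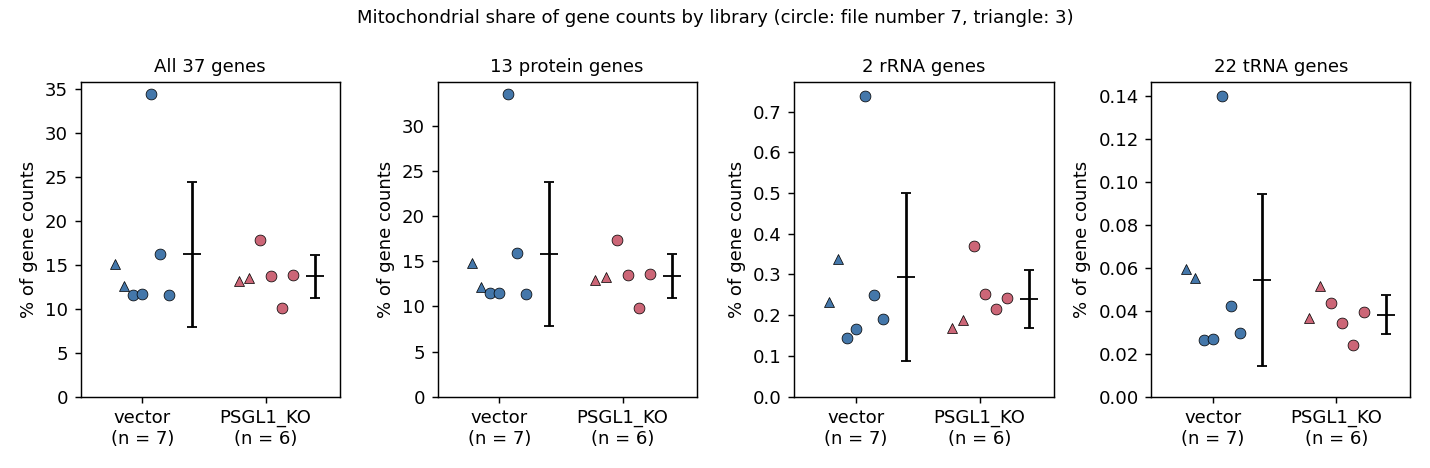
Share of gene counts (%) taken by all 37 mitochondrial genes and by the protein, rRNA and tRNA genes, 1 point per library (circles, file numbers beginning with 7; triangles, with 3) with the group mean and SD. Vector replicate 5 is the highest point in each panel, at 34.5% for all genes, and the other libraries of both groups overlap.

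The protein genes made up nearly all of this share. They took 15.8% ± 8.03 (SD, n = 7) of gene counts in vector and 13.4% ± 2.42 (SD, n = 6) in PSGL1_KO libraries. The rRNA genes took 0.294% ± 0.206 and 0.239% ± 0.0713, and the tRNA genes 0.0542% ± 0.0401 and 0.0381% ± 0.00919. By strand, plus-strand genes took 15.8% and 13.3%, and minus-strand genes 0.399% and 0.366%. The groups overlapped in every class and on both strands, and without vector replicate 5 the PSGL1_KO mean was the higher one for protein genes, rRNA genes and both strands. For tRNA genes the vector mean without that library was 0.0399%, and the difference fell from -0.0161 to -0.00178 percentage points.

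The members differed widely in level. Levels below are CPM, counts per 1e6 of a scaled library size. That size is the counts of the IDs tested times a TMM factor, a per-library factor that balances overall composition. The factor was 0.746 for vector replicate 5, which raises its CPM, and 0.913 to 1.15 for the other libraries. Levels of different genes are compared per kilobase of gene length. mt-Co1, the catalytic core of cytochrome c oxidase, had the highest mean level over all libraries, at 48239 CPM per kilobase. It was followed by mt-Cytb, the mitochondrial subunit of complex III, at 22120, and mt-Nd1, a membrane subunit of complex I, at 21850 CPM per kilobase. The other complex I genes mt-Nd2, mt-Nd4, mt-Nd6 and mt-Nd5 had 9165, 7111, 6872 and 5243 CPM per kilobase. The rRNA genes, whose products form the mitochondrial ribosome, were at 816 (mt-Rnr1, small subunit) and 1304 CPM per kilobase (mt-Rnr2, large subunit).

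The other protein genes were far lower, and 5 of them share their sequence with nuclear copies. Of all runs of 100 bases in mt-Co2, mt-Co3, mt-Atp6, mt-Nd3 and mt-Nd4l, 97.6% to 99.9% also occurred, letter for letter, in an annotated nuclear transcript. Most lie in one stretch of chromosome 1 (GRCm38), such as Gm28437 at chr1:24613189-24613971, Gm10925 at chr1:24613974-24614651 and Gm28661 at chr1:24614885-24615565. These 5 genes, which encode subunits of cytochrome c oxidase, ATP synthase and complex I, had 20.8 to 1035 CPM per kilobase. The 7 other protein genes tested had 5243 to 48239 CPM per kilobase, so the ranges did not overlap. In these 7 the shared part was 60.8% for mt-Nd4, 30.8% for mt-Co1, 3.19% for mt-Nd2 and 0% for mt-Nd1, mt-Nd5, mt-Nd6 and mt-Cytb. The rRNA genes also had 0%, and their levels of 816 and 1304 CPM per kilobase lay on either side of the highest of the 5 (1035). Reads with several alignments stand in a row of their own in the deposited files and not under a gene, so the levels of the 5 genes are uncertain. Whether this accounts for their level was not tested, and nuclear sequence outside annotated transcripts was not searched.

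**Figure D2:**
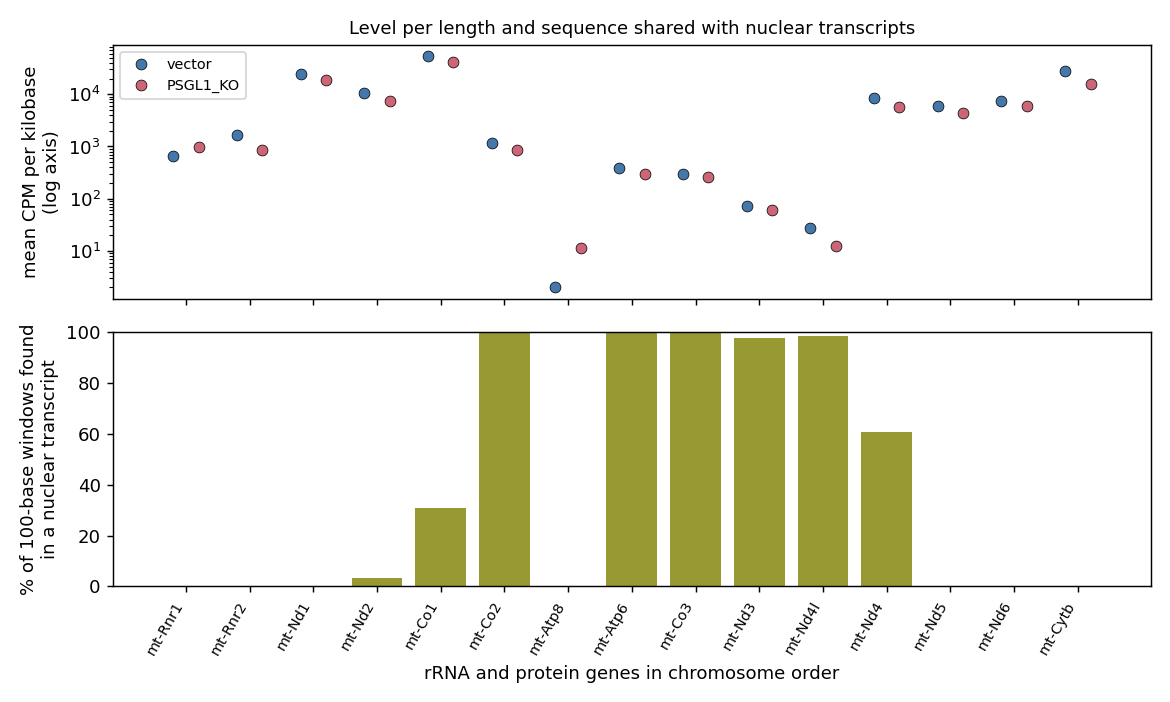
Top, mean CPM per kilobase in vector and PSGL1_KO libraries (log axis) for the rRNA and protein genes in chromosome order; bottom, the share of each gene's 100-base windows that also occur in an annotated nuclear transcript (%). The 5 genes above 97% lie at 1035 CPM per kilobase or less over all libraries.

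mt-Atp8, a small subunit of ATP synthase whose gene overlaps mt-Atp6, had 82 counts in all and was not tested. PSGL1_KO replicates 1 and 4 held 32 and 36 of them. It shared 0% of its windows with an annotated nuclear transcript and had the lowest level of the protein genes, 6.38 CPM per kilobase. The stretch of chromosome 1 between Gm10925 (end 24614651) and Gm28661 (start 24614885) was not searched. The 0% therefore does not show that mt-Atp8 has no nuclear copy.

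Of the 22 tRNA genes, 8 passed the filter on low counts: mt-Tq, mt-Tw, mt-Ta, mt-Ty, mt-Ts1, mt-Te, mt-Tt and mt-Tp. They include 6 of the 8 minus-strand but only 2 of the 14 plus-strand tRNA genes. The minus-strand tRNA genes held 27426 counts over all libraries and the plus-strand ones 1514. mt-Tf, mt-Tv, mt-Tm, mt-Tk, mt-Tg, mt-Tr and mt-Ts2 had 0 counts in all 13 libraries, which allows up to 0.0495 CPM assigned to a gene (3 counts in 60586470). This limits counts assigned, not RNA: neighbouring genes adjoin most of these 7, and how reads over 2 genes were counted is not given. mt-Tl1, mt-Ti, mt-Td, mt-Th, mt-Tl2, mt-Tn and mt-Tc had 1 to 20 counts in all.

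Counts of tRNA genes were lower where genes of the same strand lay close by, a split made after the values had been seen. The 3 tRNA genes with no gene of their own strand within 40 bases, mt-Tq, mt-Ts1 and mt-Tp, had 4400, 12059 and 8678 counts in all. The 9 with such a neighbour on one side had 0 to 1229 counts, and 5 of them were tested. The 10 with such neighbours on both sides had 0 to 20 counts, and 0 were tested.

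The edgeR test (quasi-likelihood, two-sided, Benjamini-Hochberg adjustment over the 10422 IDs tested, threshold 0.05) asked whether mitochondrial genes differed between the groups. Log2 fold changes (log2FC) are PSGL1_KO minus vector, given with their standard errors. Of the 22 members tested 5 were lower in PSGL1_KO and 0 higher, and 9 had an unadjusted p under 0.05. With DESeq2, 6 of 30 members were lower and 0 higher, against 805 lower and 1239 higher of 31216 IDs. Over all IDs tested with edgeR 5.49% were lower and 9.02% higher. The 5 of 22 lower is thus above, and 0 higher below, this background. The log2FC was negative for 21 of the 22, with a median of -0.51 against -0.01 over all IDs.

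Without vector replicate 5 this common shift was no longer seen. The log2FC was then negative for 13 and positive for 9 members, with a median of -0.03. mt-Tq, mt-Tw and mt-Ta remained lower, mt-Rnr1 became higher, and the background was 5.2% lower and 8.41% higher. The protein genes went from 12 of 12 negative to 6 of 12.

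**Figure D3:**
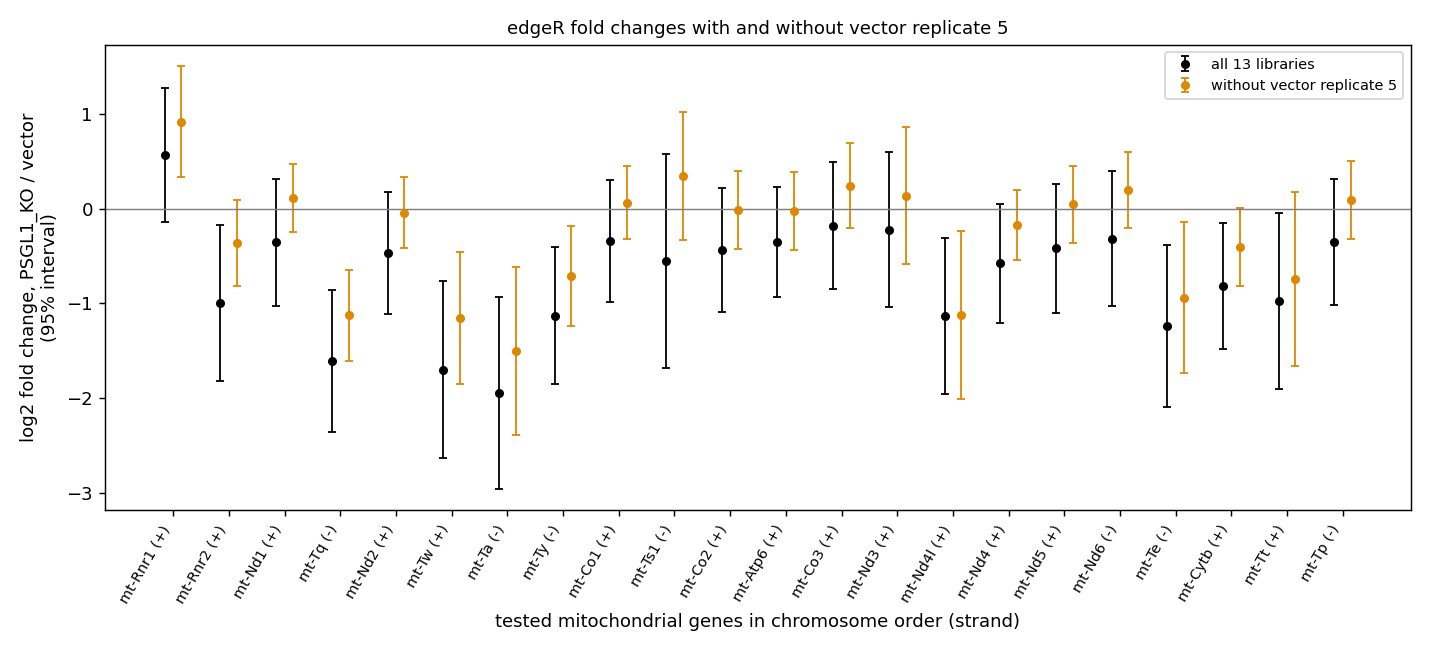
Log2 fold change (PSGL1_KO over vector) with 95% interval from edgeR for the 22 tested members in chromosome order, with all 13 libraries (black) and without vector replicate 5 (orange). Without that library most protein genes move to about 0, while mt-Tq, mt-Tw and mt-Ta stay below 0 and mt-Rnr1 lies above 0.

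mt-Tq had the lowest adjusted p of the members. It stood at 73.9, 75.1, 61.6, 70.8, 305.9, 104.7 and 83.0 CPM in vector replicates 1 to 7 and at 29.9, 39.8, 57.8, 32.1, 17.6 and 40.4 CPM in PSGL1_KO replicates 1 to 6. Every PSGL1_KO library was below every vector library, also without vector replicate 5; mt-Tq was the one tested member separated in this direction, against 2.41% of all IDs tested (2.88% without vector replicate 5). No member was separated upward, against 4.14% of all IDs (5.0% without vector replicate 5). The log2FC was -1.61 ± 0.36 (edgeR adjusted p = 0.0047), and -1.13 ± 0.23 without vector replicate 5 (adjusted p = 0.0029).

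mt-Ta had few counts. It stood at 15.2, 12.7, 5.30, 9.51, 39.8, 13.3 and 9.99 CPM in the vector libraries and at 1.95, 6.59, 5.99, 4.22, 0.337, 4.60 CPM in the PSGL1_KO libraries. The lowest value rests on 2 counts in PSGL1_KO replicate 5 (exact Poisson 95% interval 0.242 to 7.22 counts). The groups overlapped only through vector replicate 3, and 4 of 6 PSGL1_KO libraries were below all vector libraries. The log2FC was -1.95 ± 0.48 (edgeR adjusted p = 0.0103), and -1.50 ± 0.42 without vector replicate 5 (adjusted p = 0.0245).

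mt-Tw, its neighbour on the plus strand, stood at 11.6, 13.8, 5.30, 4.20, 38.1, 9.74 and 8.45 CPM in the vector libraries. In the PSGL1_KO libraries it was at 3.65, 4.40, 6.55, 4.05, 1.69 and 3.64 CPM, again with 4 of 6 below all vector libraries. The log2FC was -1.70 ± 0.45 (edgeR adjusted p = 0.0144), and -1.16 ± 0.33 without vector replicate 5 (adjusted p = 0.0276).

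mt-Ty and mt-Te passed by less. mt-Ty stood at 18.6, 19.9, 14.9, 18.8, 71.8, 28.2 and 23.6 CPM in the vector and at 8.52, 10.4, 21.3, 12.5, 7.76 and 15.7 CPM in the PSGL1_KO libraries, 4 of which lay below all vector libraries. Its log2FC of -1.13 ± 0.35 (edgeR adjusted p = 0.0342) became -0.71 ± 0.25 (adjusted p = 0.0696) without vector replicate 5. mt-Te stood at 19.3, 9.85, 4.33, 5.53, 24.02, 8.94 and 6.15 CPM in the vector and at 4.87, 7.42, 6.36, 2.20, 2.36 and 5.36 CPM in the PSGL1_KO libraries. Only 2 PSGL1_KO libraries were below all vector libraries for mt-Te. Its log2FC of -1.24 ± 0.41 (edgeR adjusted p = 0.0482) became -0.94 ± 0.38 (adjusted p = 0.113) without vector replicate 5, and with scaling on IDs outside the mitochondrial chromosome its adjusted p was 0.0505. Under that scaling 4 members were lower and 0 higher, and 5.27% and 9.19% of all IDs. Single left-out libraries besides vector replicate 5 also ended these calls: vector replicate 6 and PSGL1_KO replicates 1, 2, 4 and 5 for mt-Ty (adjusted p of 0.0523 to 0.0827), and 3 vector (1, 2, 6) and 5 PSGL1_KO replicates (1, 3, 4, 5, 6) for mt-Te (0.0519 to 0.110). The calls of mt-Tq, mt-Tw and mt-Ta held in each fit that left out 1 library.

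**Figure D4:**
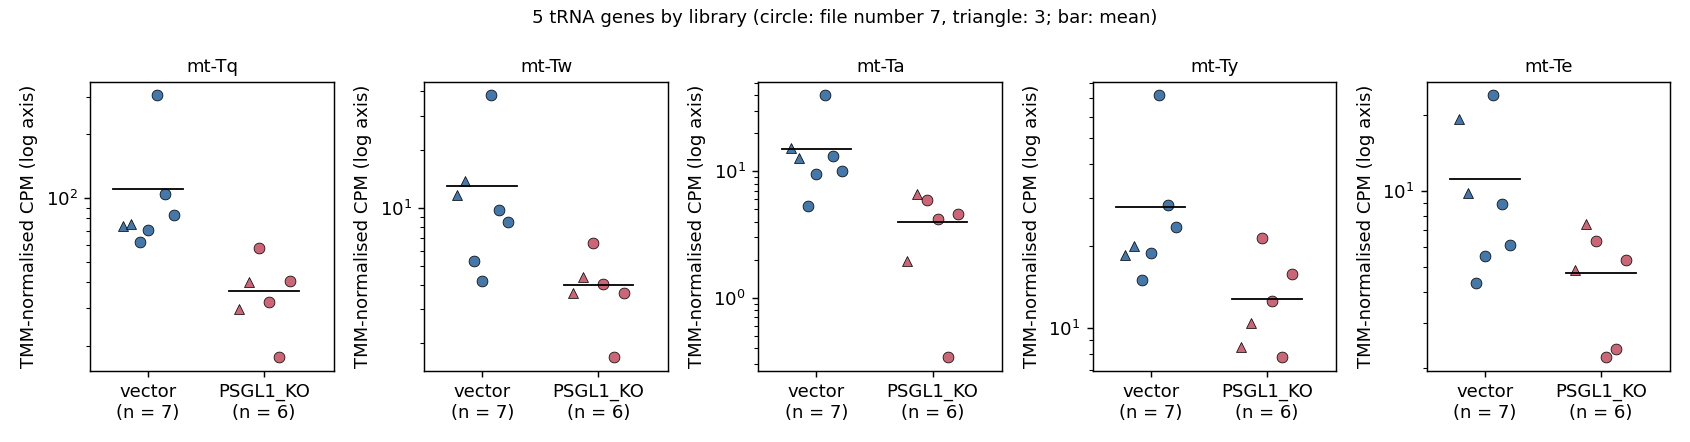
TMM-normalised CPM (log axis) of mt-Tq, mt-Tw, mt-Ta, mt-Ty and mt-Te, 1 point per library (circles, file numbers beginning with 7; triangles, with 3), with the group mean as a bar. For mt-Tq all 6 PSGL1_KO libraries, at 17.6 to 57.8 CPM, lie below all vector libraries; the other 4 genes overlap.

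The remaining tRNA genes did not pass. mt-Tt, mt-Ts1 and mt-Tp, which carry threonine, serine and proline, had log2FC of -0.98 ± 0.44, -0.55 ± 0.54 and -0.35 ± 0.32. Within the file numbers, 0 of the 8 tRNA genes passed among files numbered from 7, with log2FC of -2.05 to -0.44. These files include vector replicate 5, and they were not fitted on their own without it. Among those numbered from 3, with 2 libraries per group, 6 passed, with -1.70 to 0.13. Over all IDs tested 1038 of 10775 were lower among files numbered from 7, and 1135 of 10525 among those from 3. A test of the difference between the file numbers called 0 of the 22 members. Its standard errors were 0.74 to 1.48 log2 units, so it could miss large differences and does not show that the file numbers agree. With the file number as a term in the fit of all libraries, 6 members were lower and 0 higher: the same 5 tRNA genes and mt-Nd4l. Over all IDs 1435 were then higher and 1254 lower, against 940 and 572 without that term.

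The 2 rRNA genes went in different directions. mt-Rnr1 stood at 354.0, 1114, 313.7, 351.5, 1494, 470.2 and 364.9 CPM in the vector and at 693.7, 983.2, 1346, 954.4, 900.9 and 787.1 CPM in the PSGL1_KO libraries. All PSGL1_KO libraries exceeded 5 of the 7 vector libraries, the exceptions being vector replicates 2 and 5. The log2FC of mt-Rnr1 was 0.57 ± 0.34 (edgeR adjusted p = 0.299), and 0.92 ± 0.28 without vector replicate 5 (adjusted p = 0.0364).

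mt-Rnr2 stood at 1862, 2137, 1145, 1373, 8488, 2103 and 1646 CPM in the vector and at 922.8, 1087, 2174, 1480, 1047 and 1345 CPM in the PSGL1_KO libraries. The groups overlapped, with 3 PSGL1_KO libraries below all vector libraries. The log2FC of mt-Rnr2 was -0.997 ± 0.39 (edgeR adjusted p = 0.101), and -0.36 ± 0.22 without vector replicate 5 (adjusted p = 0.299). Among files numbered from 3 mt-Rnr2 was lower, at -0.96 ± 0.19 (edgeR adjusted p = 1e-05).

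The ratio of the rRNA genes to each other does not move with the mitochondrial total, and it separated the groups. Counts of mt-Rnr2 per count of mt-Rnr1 were 5.26, 1.92, 3.65, 3.91, 5.68, 4.47 and 4.51 in vector replicates 1 to 7. In PSGL1_KO replicates 1 to 6 they were 1.33, 1.11, 1.62, 1.55, 1.16 and 1.71. Every PSGL1_KO library lay below every vector library, the nearest being vector replicate 2. The means were 4.20 ± 1.23 (SD, n = 7) and 1.41 ± 0.25 (SD, n = 6), and 3.95 ± 1.14 (SD, n = 6) for vector without replicate 5. The groups also did not overlap within files numbered from 7 (4.44 against 1.51) or from 3 (3.59 against 1.22). Of the 231 ratios between 2 tested members 13.4% separated the groups in one direction or the other, so a separated ratio is not rare among these genes.

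Among the protein genes 0 of 12 passed in either direction with all libraries and the group as the only term. Under other settings mt-Nd4l was lower in 7, among them DESeq2 (adjusted p = 0.0418), the file number as a term (edgeR adjusted p = 0.0368) and without vector replicate 6 (edgeR adjusted p = 0.0352). mt-Nd4 and mt-Cytb were lower in 1, with no filter on low counts (edgeR adjusted p of 0.0292 and 0.00094). mt-Co1 stood at 66237, 56660, 54260, 58327, 208571, 77533 and 56791 CPM in the vector and at 65470, 69299, 87967, 65416, 45362 and 56991 CPM in the PSGL1_KO libraries. The groups overlapped, with a log2FC of -0.34 ± 0.31 (edgeR adjusted p = 0.517) and 0.06 ± 0.18 without vector replicate 5 (adjusted p = 0.872). mt-Nd1 stood at 17018, 16020, 15402, 14558, 63255, 20025 and 16634 CPM in the vector and at 15708, 22423, 22082, 18487, 13046 and 17175 CPM in the PSGL1_KO libraries. Its log2FC was -0.36 ± 0.32 (edgeR adjusted p = 0.514), and 0.11 ± 0.17 without vector replicate 5.

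mt-Cytb stood at 27068, 21908, 20102, 21109, 80308, 30478 and 20422 CPM in the vector and at 18551, 24217, 20962, 16450, 11053 and 16337 CPM in the PSGL1_KO libraries. Of the PSGL1_KO libraries 4 lay below all vector libraries. The log2FC was -0.82 ± 0.32 (edgeR adjusted p = 0.0916), and -0.41 ± 0.19 without vector replicate 5 (adjusted p = 0.190).

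mt-Nd6, a complex I subunit and the one protein gene of the minus strand, stood at 2533, 2081, 2718, 2513, 11215, 3811 and 2625 CPM in the vector libraries. In the PSGL1_KO libraries it was at 2386, 2937, 3999, 3842, 2197 and 3508 CPM, within the vector range. Its log2FC was -0.32 ± 0.34 (edgeR adjusted p = 0.596), and 0.19 ± 0.19 without vector replicate 5 (adjusted p = 0.566). The other 8 protein genes tested were mt-Nd2, mt-Nd3, mt-Nd4, mt-Nd4l, mt-Nd5, mt-Co2, mt-Co3 and mt-Atp6. Their log2FC lay between that of mt-Nd4l (-1.14 ± 0.39) and that of mt-Co3 (-0.18 ± 0.32). mt-Nd4l was scarce, with mean levels of 8.29 (vector) and 3.75 CPM (PSGL1_KO), and its gene overlaps that of mt-Nd4. Its vector mean leans on vector replicate 7 at 22.5 CPM, where the other vector libraries had 3.18 to 9.46 CPM. Without vector replicate 7 the lowest log2FC of a protein gene was -0.88, and 0 protein genes passed.

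The make-up of the mitochondrial counts was then described with each library's mitochondrial total set to 100%. The classes kept nearly the same parts: rRNA genes made up 1.74% ± 0.50 in vector (SD, n = 7) and 1.75% ± 0.36 in PSGL1_KO libraries (SD, n = 6), and tRNA genes 0.315% ± 0.0929 and 0.279% ± 0.0528. Minus-strand genes made up 2.39% ± 0.25 and 2.67% ± 0.41, with overlapping groups.

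Single genes differed more than the classes. Of the 22 tested members 3 had a share of mitochondrial counts that was lower in every PSGL1_KO than in every vector library (13.6%), namely mt-Tq, mt-Ta and mt-Cytb, and none was higher in every one. This measure has no counterpart for IDs outside the mitochondrial chromosome. By CPM, an unlike measure, 2.41% of all IDs tested were lower in every PSGL1_KO library. mt-Cytb made up 18.8%, 18.01%, 17.2%, 17.3%, 17.3%, 18.2% and 16.6% of mitochondrial counts in the vector libraries, vector replicate 5 included. In the PSGL1_KO libraries it made up 14.6%, 16.3%, 12.3%, 12.4%, 12.2% and 13.4%. The means were 17.6% ± 0.74 and 13.5% ± 1.61, and the groups did not overlap within either file number (17.3% against 12.6% for 7, 18.4% against 15.4% for 3). mt-Co1 made up 46.3% ± 0.88 and 49.4% ± 2.32, with overlapping groups, and mt-Nd1 12.7% ± 0.80 and 13.8% ± 0.97, also overlapping.

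mt-Nd6 and mt-Cytb lie next to each other on opposite strands, with mt-Te between them. Counts of mt-Nd6 per count of mt-Cytb were 0.0936, 0.0950, 0.135, 0.119, 0.140, 0.125 and 0.129 in the vector and 0.129, 0.121, 0.191, 0.234, 0.199 and 0.215 in the PSGL1_KO libraries. The 4 PSGL1_KO libraries of files numbered from 7 were above all vector libraries, and the 2 numbered from 3 were above the 2 vector libraries of that number and within the range of the other vector libraries. The means were 0.119 ± 0.018 and 0.181 ± 0.046.

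The tRNA genes were also set against the protein genes on either side, a measure added after the data had been seen. mt-Tq had 2.86, 3.30, 2.69, 3.20, 3.34, 3.50 and 3.41 counts per 1000 counts of mt-Nd1 and mt-Nd2 in the vector libraries, so that vector replicate 5 lay among the others. In the PSGL1_KO libraries it had 1.25, 1.23, 1.84, 1.23, 0.976 and 1.65. The means were 3.19 ± 0.30 (SD, n = 7) and 1.36 ± 0.32 (SD, n = 6), with no overlap, also within each file number. mt-Ta, set against mt-Nd2 and mt-Co1, had 0.158 ± 0.039 and 0.051 ± 0.029 per 1000 counts, without overlap. Separated ratios were not rare here: 13.4% of the 231 ratios between 2 tested members separated the groups. mt-Tw (0.132 and 0.053), mt-Ty (0.297 and 0.173) and mt-Te (0.325 and 0.220) had lower PSGL1_KO means with overlapping groups. mt-Tp, which lies beyond mt-Tt from mt-Cytb, had 5.08 ± 1.21 and 7.25 ± 0.92 per 1000 counts of mt-Cytb, with overlapping groups. The mean level of mt-Tp itself was 162.9 CPM (vector) and 127.6 CPM (PSGL1_KO). The vector mean leans on vector replicate 5 at 427.5 CPM. Without that library it was 118.8 CPM, below the PSGL1_KO mean. mt-Cytb made up 17.6% (vector) and 13.5% (PSGL1_KO) of mitochondrial counts.

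**Figure D5:**
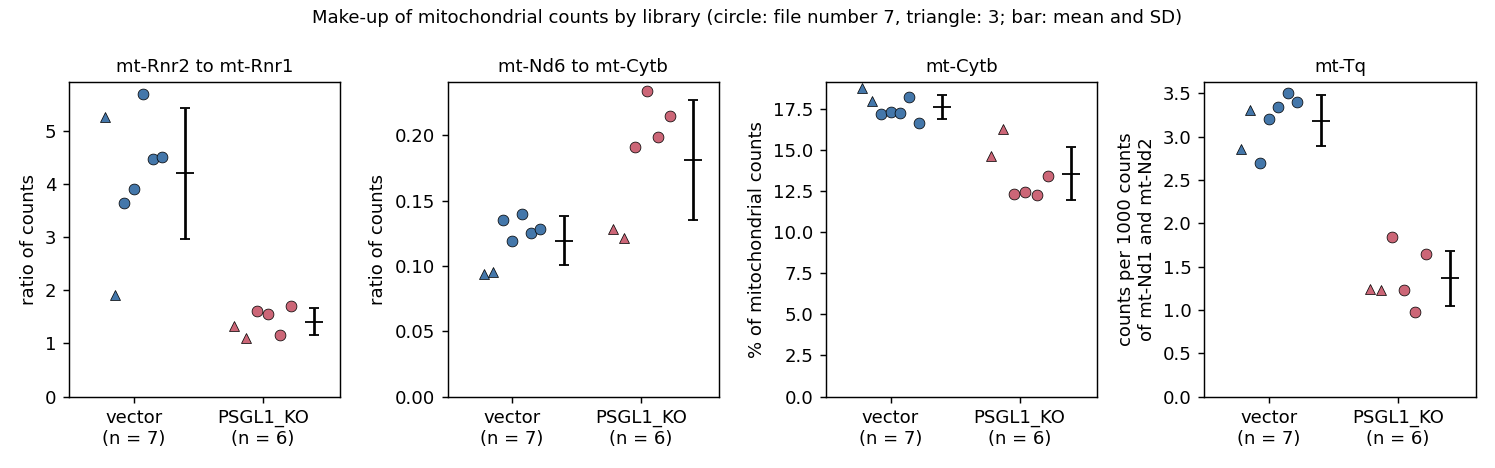
Counts of mt-Rnr2 per count of mt-Rnr1, of mt-Nd6 per count of mt-Cytb, mt-Cytb as % of mitochondrial counts and mt-Tq per 1000 counts of mt-Nd1 and mt-Nd2, 1 point per library (circles, file numbers beginning with 7; triangles, with 3) with mean and SD. The groups are separate in all panels but that of mt-Nd6 to mt-Cytb (means 4.20 and 1.41, 17.6% and 13.5%, 3.19 and 1.36), and there vector replicate 5 does not stand apart from its group.

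Of 59 nuclear genes that maintain, transcribe, process or translate mitochondrial DNA and RNA, 58 matched an ID. Their counts could not be read by gene name either, and for 21 the highest count in any library was 3 or less. Of the 18 tested 2 were higher and 1 lower, with a median log2FC of 0.08 against -0.01 over all IDs (14.5% of which passed in either direction). No single gene of this list is described for that reason.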

How the data were processed

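The authors deposited raw read counts per gene ID, 1 file per library; the submitters' processing notes list HISAT2, SAMtools, HTSeq and mm10. Versions, annotation release, counting mode and the strand option were not given in the sources used here. The 5 summary rows entered neither library sizes nor tests. Members were found by identifier in GENCODE M21. Counts were fitted with edgeR 4.0.16 in R 4.3.3 (filterByExpr, TMM, robust quasi-likelihood, group as the only term; tested on simulated data), with DESeq2 1.42.0 as an alternative. Shares, ratios and make-up are descriptions without a test. No pair of libraries in a group agreed within sampling noise (lowest mean chi-square per ID 2.99). Values in every library are given for members past the threshold, both rRNA genes, the 3 protein genes highest per kilobase, mt-Nd6 and any member whose call changed with scaling on IDs outside the mitochondrial chromosome; other ratios and groupings were added after values were seen. The members and lists were chosen with earlier results of these data known. Alternatives covered scaling, library size, tool, filter, left-out libraries, a replicate block and the file number.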

Additional observations from a re-analysis of the deposited data

Results flagged for a closer look

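In 66 sets of values (a measure in 1 group) the gap between an extreme library and the next was compared with the group's range, and 28 sets held a library that stood apart. Chance gives about 1 in 20 per set, and the sets share libraries. Vector replicate 5 was the library in 23 of them, always at the top of its group. For shares of gene counts its values were 34.5% for all mitochondrial genes, 33.6% for protein genes, 0.739% for rRNA genes, 0.140% for tRNA genes, 33.5% for the plus strand and 0.964% for the minus strand. Among tRNA genes it had 305.9 CPM of mt-Tq, 38.1 CPM of mt-Tw, 39.8 CPM of mt-Ta, 71.8 CPM of mt-Ty, 937.5 CPM of mt-Ts1 and 427.5 CPM of mt-Tp. For mt-Ts1 the other vector libraries had 72.5 to 249.9 CPM. Among rRNA and complex I genes it had 8488 CPM of mt-Rnr2, 63255 CPM of mt-Nd1, 28223 CPM of mt-Nd2, 29183 CPM of mt-Nd4, 29326 CPM of mt-Nd5 and 11215 CPM of mt-Nd6. Among the other protein genes it had 208571 CPM of mt-Co1, 80308 CPM of mt-Cytb, 2060 CPM of mt-Co2, 596.1 CPM of mt-Co3 and 586.9 CPM of mt-Atp6.

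PSGL1_KO replicate 2 was the highest of its group for mt-Ts1 (313.7 CPM, next 170.4 CPM), mt-Nd3 (45.1 CPM, next 22.2 CPM), mt-Tt (25.8 CPM, next 13.4 CPM) and the tRNA part of mitochondrial counts (0.380%, next 0.283%). Vector replicate 7 had 22.5 CPM of mt-Nd4l, the next vector library 9.46 CPM.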

How the results depend on the processing

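The number of members lower in PSGL1_KO was 5 and ranged from 3 to 7 over the fits that leave out a library, alone or with another change; it was 3 without vector replicate 5 and without PSGL1_KO replicate 1, 4 or 5, 3 with library sizes from all reads, 8 with no filter on low counts, 1 among files numbered from 7 (mt-Nd4l), 7 among those numbered from 3 (6 tRNA genes and mt-Rnr2) and 6 with the file number as a term. Over all IDs tested, 537 of 10319 were lower without vector replicate 5 and 302 of 10422 with library sizes from all reads. Without PSGL1_KO replicate 1, 4 or 5 it was 527 of 10672, 446 of 10605 and 443 of 10580. With no filter 650 of 31223 were lower, and with the file number as a term 1254 of 10422. Among files numbered from 7 it was 1038 of 10775, and among those from 3 it was 1135 of 10525. The number of members higher ranged from 0 to 1, the 1 being mt-Rnr1 whenever vector replicate 5 was left out. Library sizes from all reads move the median log2FC of all IDs to 0.11 from -0.01. Adjusted p over the fits with a library left out was 0.00048 to 0.0136 for mt-Tq, 0.0062 to 0.0245 for mt-Ta, 0.0078 to 0.0383 for mt-Tw, 0.0134 to 0.0827 for mt-Ty and 0.0306 to 0.113 for mt-Te. Replicate numbers did not pair the libraries: same-numbered libraries correlated at -0.05 to 0.63 and 2 of 6 vector libraries correlated best with their own number. With the replicate block 2 of 22 members were lower, mt-Te and mt-Tt, against 962 of 10422 over all IDs tested, which is near the same share. In that fit mt-Tq (edgeR adjusted p = 0.0859), mt-Tw (0.0596), mt-Ta (0.112) and mt-Ty (0.0729) missed the threshold.

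Without vector replicate 5 the log2FC turned positive for 8 members (values in order for TMM, for scaling on IDs outside the mitochondrial chromosome and for the file number as a term): mt-Nd1 (0.110, 0.110, 0.110), mt-Co1 (0.0625, 0.0619, 0.0623), mt-Ts1 (0.343, 0.342, 0.426), mt-Co3 (0.242, 0.241, 0.244), mt-Nd3 (0.136, 0.135, 0.0809), mt-Nd5 (0.0430, 0.0423, 0.0411), mt-Nd6 (0.194, 0.193, 0.196) and mt-Tp (0.0901, 0.0894, 0.112). The lowest values over left-out libraries were -0.43, -0.43, -0.81, -0.28, -0.57, -0.51, -0.42 and -0.46 for these 8 genes in the same order. Among files numbered from 3 it was positive for mt-Nd1 (0.24), mt-Nd2 (0.26), mt-Co1 (0.17), mt-Ts1 (0.13), mt-Co3 (0.22), mt-Nd3 (0.60), mt-Nd5 (0.0232) and mt-Nd6 (0.24). The cause was not tested.

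The difference in share (PSGL1_KO minus vector, percentage points) ranged over left-out libraries from -3.32 to 0.554 for all genes, -3.22 to 0.536 for protein genes, -0.0805 to 0.0197 for rRNA genes, -3.26 to 0.493 for the plus strand -0.0207 to -0.0018 for tRNA genes and -0.0559 to 0.0606 for the minus strand, with the highest value without vector replicate 5. With medians it was 1.01 for all genes, 1.14 for protein genes, 0.903 for the plus strand and 0.0781 for the minus strand, and among files numbered from 3 the minus strand gave 0.0062. For the rRNA part of mitochondrial counts it ranged from -0.0773 to 0.160 and was -0.772 among files numbered from 3; the median for the tRNA part was 0.0032. Per 1000 counts of the flanking genes, files numbered from 3 gave differences of -0.147 for mt-Ta, -0.134 for mt-Tw and -0.279 for mt-Te. Of the nuclear list 3 of 18 IDs tested passed, with 940 higher and 572 lower of 10422 IDs in all. It was 6 of 52 with DESeq2 (1239 and 805 of 31216) and 6 of 52 with no filter (1164 and 650 of 31223). With the block it was 7 of 18 (1176 and 962 of 10422). With the file number as a term it was 8 of 18 (1435 and 1254 of 10422). Among files numbered from 7 it was 5 of 19 (1205 and 1038 of 10775). Among those from 3 it was 7 of 18 (1312 and 1135 of 10525). With libraries left out, alone or with another change, 2 to 8 passed. The 8 came from the fit that also had the file number as a term. Directions of the ratios of mt-Rnr2 to mt-Rnr1 and mt-Nd6 to mt-Cytb and of mt-Tq against its flanking genes held in each setting run.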
